A study of Homo sapiens with 4 samples.

Results

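The genes of homologous recombination and of the Fanconi anaemia pathway were examined as a list of 34, chosen by name and matched through the RefSeq accessions of the deposited transcripts. All 34 were found among 22985 named genes, and all 34 had enough tags to be among the 15975 genes tested. They were measured in 2 human prostate cancer cell lines, with 2 total RNA libraries each, after removal of ribosomal RNA. C4-2, labelled CRPC (castration-resistant prostate cancer), is a subline of LNCaP, which was itself grown from a metastasis in a lymph node and which the labels call Primary PC. Both lines were grown in RPMI medium with charcoal-stripped serum, which is depleted of steroids, and no other agent is named. Both lines go back to the cells of a single person, and the labels do not say if replicate libraries of a line had separate cultures as their source. P-values therefore measure the spread between these libraries, which may be technical. The deposited tables carry the name of the other line, so groups follow the sample titles and cell line labels, and every direction given here would turn round if the stored names were right.

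Homologous recombination repairs a break in DNA by copying the intact sister chromatid, and so works in cells that have replicated their DNA. Nucleases trim the broken ends, the BRCA proteins help to build a protein filament on the exposed strand that finds the matching sequence, and helicases and nucleases take the joined molecules apart. The Fanconi pathway senses DNA strands that are crosslinked to each other, marks the site by attaching ubiquitin to the FANCD2 and FANCI pair, and hands the resulting break to recombination. In prostate cancer these genes are known for inherited and acquired mutations of BRCA2, ATM and others, and for the response of such tumours to PARP inhibitors.

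The libraries differed in depth and makeup. Exonic sense tags of named genes came to 163.13 and 119.08 M (M, mega) in the C4-2 libraries and to 58.93 and 70.46 M in the LNCaP libraries. These were 67.67% and 69.43% of the totals by which the authors scaled RPKM (reads per kilobase of exon and per 1e6 tags) in C4-2, against 31.03% and 35.65% in LNCaP. All 10 prostate markers examined had tags in every library, with KLK3 and KLK2, genes of secreted proteases, lower in C4-2 at log2 fold changes of -6.46 and -3.78. Summed immune and endothelial markers stood at 6.04 and 5.65 CPM in C4-2 and 7.91 and 7.94 in LNCaP, with the T cell marker CD3E at 0 tags in every library. VWF was the most abundant of them, at 3.53 and 3.31 CPM in C4-2 and 4.24 and 4.13 in LNCaP. LYZ, VWF and PECAM1 were lower in C4-2 (-0.97, -0.29 and -1.44), and CD68 stood at -0.23 (edgeR adjusted p = 0.262). Summed fibroblast markers stood at 6.92 and 7.06 CPM in C4-2 and 8.99 and 11.2 in LNCaP, with COL1A2 at 0, COL1A1 lower (-1.48, adjusted p = 8.98e-06) and COL3A1 higher (1.35, adjusted p = 0.000261) in C4-2. Levels are given as CPM, the tags of a gene per 1e6 tags of named genes after TMM scaling, and levels of different genes are compared per kilobase of exon.

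Repair genes moved in both directions between the lines, by modest amounts. Of 34 members, 17 were higher and 6 lower in C4-2, and 11 did not pass (edgeR quasi-likelihood test, adjusted p under 0.05). The largest rises were those of RAD54L, BRCA1 and CHEK1 and the largest fall was that of BRCA2. Among all genes tested 80.0% were called, 40.2% higher and 39.7% lower, so the 23 members called, 67.65% of the list, were a smaller share than that background. Both libraries of a line lay on the same side of both of the other for 28 members, 20 higher and 8 lower, beside 89.9% of all genes tested. A change of at least 2-fold was called for RAD54L alone, while 29.8% of all genes tested passed that mark. The median log2 fold change of the members was 0.17, with quartiles at -0.05 and 0.58, beside -0.01 over all genes, with quartiles at -0.72 and 0.57. TMM sets the typical gene near no change. Scaling instead to the totals used for RPKM, called library totals from here on, shifted the median of all genes by 1.004 on the log2 scale, and 33 members were then higher, none lower, and BRCA2 did not pass. In such bulk libraries fewer cells that express a gene and less RNA per cell cannot be told apart.

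**Figure D1:**
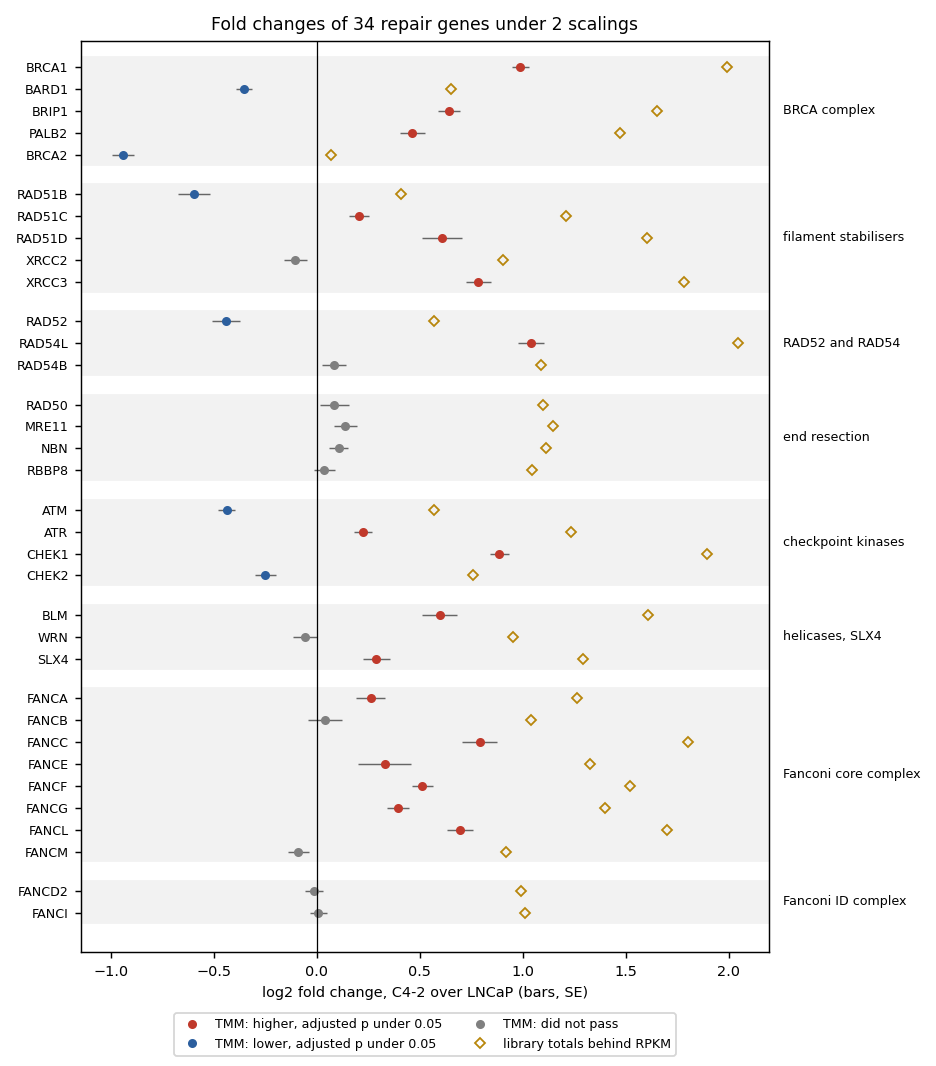
Log2 fold change of each of the 34 genes, C4-2 over LNCaP, with its standard error and grouped by role (n = 2 libraries per line). Filled circles are scaled with TMM and coloured by call, and open diamonds are scaled to library totals, under which all 34 lie above 0.

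BRCA1 and BRCA2 stood apart from each other. BRCA1, an ubiquitin ligase subunit that acts from end trimming to filament loading (hg19 chromosome 17, 41196312 to 41277500, minus strand), had 136 and 143 CPM in C4-2, against 71.0 and 70.0 CPM in LNCaP. The lines did not overlap, and the log2 fold change was 0.99 ± 0.042 (SE, edgeR adjusted p = 2.61e-07), a 1.98-fold rise. BRCA2, which helps to load the filament on single-stranded DNA (chromosome 13, 32889617 to 32973809, plus strand), had 62.9 and 63.6 CPM in C4-2, against 127 and 116 CPM in LNCaP. Both C4-2 libraries lay far below both LNCaP libraries, at a log2 fold change of -0.94 ± 0.052 (edgeR adjusted p = 8.92e-07), which was 0.067 and did not pass with library totals (adjusted p = 0.60). A ratio of these genes within a library needs no scaling between libraries. Per kilobase of exon, BRCA1 was 3.40 and 3.53 times BRCA2 in the C4-2 libraries and 0.88 and 0.95 times BRCA2 in the LNCaP libraries. BRCA1 was thus the more abundant mRNA in C4-2 and slightly the less abundant in LNCaP, a 3.80-fold difference in their ratio.

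The partners of BRCA1 and BRCA2 did not follow a single course. BARD1, the obligate partner of BRCA1 in its ligase, was the most abundant of the 34 genes in both lines, at 87.1 ± 0.29 CPM per kilobase in C4-2 and 111 ± 0.50 in LNCaP (SD, n = 2). It fell by 0.35 on the log2 scale (edgeR adjusted p = 5.92e-05), or stood at 0.65 with library totals. BRCA1 came to 0.216 and 0.226 of BARD1 per kilobase in C4-2 and to 0.0876 and 0.0868 in LNCaP, so that the partners were closer in level in C4-2. BRIP1, a helicase that binds BRCA1, had 43.7 and 45.1 CPM in C4-2 and 29.0 and 27.9 CPM in LNCaP, a 1.56-fold rise with no overlap. PALB2, the bridge between BRCA1 and BRCA2, had 29.3 and 31.8 CPM in C4-2 and 22.1 and 22.2 CPM in LNCaP, a 1.38-fold rise. Relative to BRCA2, PALB2 was at 1.31 and 1.41 per kilobase in C4-2 and at 0.488 and 0.538 in LNCaP.

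A family of related proteins stabilises these filaments, in one complex of RAD51B, RAD51C, RAD51D and XRCC2 and another of RAD51C and XRCC3. XRCC3 had 60.0 and 58.0 CPM in C4-2 and 32.6 and 35.9 CPM in LNCaP, a log2 fold change of 0.78 ± 0.061 (edgeR adjusted p = 6.7e-06). RAD51D had 13.4 and 13.2 CPM in C4-2 and 7.86 and 9.61 CPM in LNCaP (0.61 ± 0.098, adjusted p = 0.000572). RAD51B went the other way, with 8.48 and 9.14 CPM in C4-2 and 12.9 and 13.7 CPM in LNCaP (-0.60 ± 0.077, adjusted p = 0.000146), though 0.41 with library totals. XRCC2 did not pass (-0.11 ± 0.056, adjusted p = 0.113), its C4-2 libraries lying at 30.1 and 31.4 CPM and its LNCaP libraries at 33.8 and 32.3 CPM. Members of the same complex thus differed in direction: per kilobase, RAD51D was 0.570 and 0.538 of XRCC2 in C4-2 against 0.297 and 0.379 in LNCaP, and RAD51B was 0.0915 and 0.100 of RAD51C in C4-2 against 0.157 and 0.177 in LNCaP. RAD51C itself had 63.5 and 62.6 CPM in C4-2 and 56.4 and 53.0 CPM in LNCaP.

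RAD51C, which belongs to both complexes, showed a difference between its transcripts. Its full-length transcript had 33.0 and 33.6 RPKM in C4-2 and 13.9 and 14.8 RPKM in LNCaP. A short transcript that covers only the 5' end of the gene (chromosome 17, 56769963 to 56772695, 591 exon bases), had 33.8 and 33.7 RPKM in C4-2 and 22.1 and 24.9 RPKM in LNCaP. The short form was thus at 1.025 and 1.003 times the full-length one in C4-2 and at 1.59 and 1.68 times it in LNCaP, with no overlap. The call of RAD51C rests on which transcript is counted: the full-length transcript rose, at 0.20 ± 0.050 (edgeR adjusted p = 0.00548), or 0.11 with a stricter filter (adjusted p = 0.0577), whereas the sum of both gave -0.05 (adjusted p = 0.355). Across the 17 members with more than 1 listed transcript, 30 of 34 other transcripts had a ratio to the top transcript that differed by at most 5% between the means of the lines. The exceptions, beside RAD51C, were a form of FANCC with another 3' end (0.874 and 0.868 in C4-2, 1.10 and 0.970 in LNCaP), the longest form of RAD51B (0.638 and 0.635 in C4-2, 0.684 and 0.683 in LNCaP) and the longest form of RAD54B (0.333 and 0.341 in C4-2, 0.291 and 0.289 in LNCaP). Transcripts of a gene share most of their tags, so these ratios are descriptions. The differing forms of RAD51C, FANCC and RAD54B end inside the span of the top transcript, so tags from unspliced RNA may be counted for them. The exonic share was 31.03% and 35.65% in LNCaP, against 67.67% and 69.43% in C4-2. The part of unspliced RNA in these ratios was not tested.

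**Figure D2:**
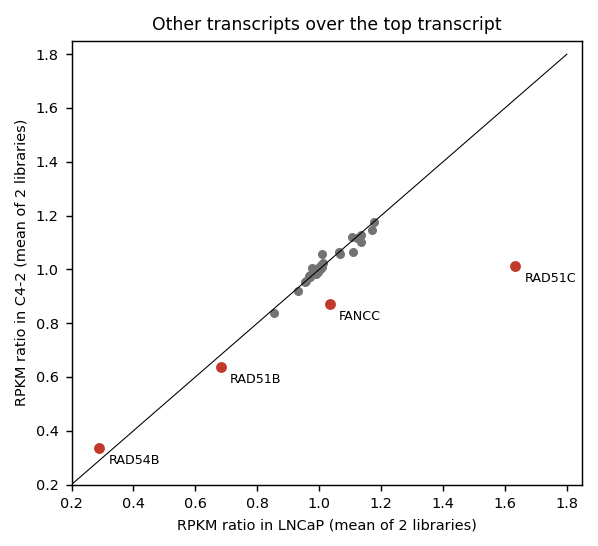
RPKM of each of the 34 other listed transcripts divided by that of the top transcript of its gene, in C4-2 (vertical axis) and LNCaP (horizontal axis), each the mean of 2 libraries. The line marks equal ratios, red points differ by over 5% from equality, and the short form of RAD51C lies farthest below the line, at 1.014 in C4-2 and 1.63 in LNCaP.

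Among the genes that act with the filament or on single strands, RAD54L, a motor protein that opens the intact duplex for strand exchange (chromosome 1, 46713367 to 46744145, plus strand), had 24.6 and 24.8 CPM in C4-2, against 11.7 and 12.3 CPM in LNCaP. This was a log2 fold change of 1.04 ± 0.062 (edgeR adjusted p = 1.34e-06), or 2.06-fold, higher than that of 88.9% of all genes tested. Its relative RAD54B did not pass, with 28.5 and 30.3 CPM in C4-2 and 28.0 and 27.5 CPM in LNCaP (0.08 ± 0.057, adjusted p = 0.205), though its longest transcript, the form with the differing ratio above, did (0.30, adjusted p = 0.00398). Over all its forms, RAD54B shares 3511 exon bases with the gene FSBP on the same strand. RAD54L was 0.842 and 0.802 of RAD54B per kilobase in C4-2 and 0.407 and 0.439 in LNCaP. RAD52, which anneals single strands, fell to 12.1 and 12.5 CPM in C4-2, against 17.4 and 16.1 CPM in LNCaP (-0.44 ± 0.069, adjusted p = 0.000465), and stood at 0.57 with library totals.

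The 250 bases before the start of the genes that rose most, RAD54L, BRCA1 and CHEK1, and of the gene that fell most, BRCA2, are shown to compare their CCAAT boxes, the site of the NF-Y factor that many cell cycle promoters carry. Sequences are from RefSeq on GRCh38.p14, read 5' to 3' on the gene's strand, with CCAAT or its reverse complement ATTGG in capitals. RefSeq lists 2 starts for RAD54L, 2 for BRCA1, 3 for CHEK1 and 1 for BRCA2, and the start with the most boxes is shown, the other start of BRCA1 having none. This choice favours boxes, and the shown start need not be that of the transcript whose tags were counted.
RAD54L (chr1:46247513-46247762, plus strand): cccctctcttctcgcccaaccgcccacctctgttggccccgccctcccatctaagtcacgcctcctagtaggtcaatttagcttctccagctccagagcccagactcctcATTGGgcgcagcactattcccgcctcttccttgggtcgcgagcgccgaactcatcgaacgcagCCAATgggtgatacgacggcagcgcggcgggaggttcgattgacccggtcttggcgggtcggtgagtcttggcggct
BRCA1 (chr17:43125365-43125614, minus strand): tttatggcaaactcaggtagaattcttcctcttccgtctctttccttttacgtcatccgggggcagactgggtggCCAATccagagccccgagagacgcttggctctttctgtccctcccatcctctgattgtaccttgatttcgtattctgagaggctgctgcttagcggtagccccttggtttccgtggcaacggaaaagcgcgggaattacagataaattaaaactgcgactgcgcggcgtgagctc
CHEK1 (chr11:125626106-125626355, plus strand): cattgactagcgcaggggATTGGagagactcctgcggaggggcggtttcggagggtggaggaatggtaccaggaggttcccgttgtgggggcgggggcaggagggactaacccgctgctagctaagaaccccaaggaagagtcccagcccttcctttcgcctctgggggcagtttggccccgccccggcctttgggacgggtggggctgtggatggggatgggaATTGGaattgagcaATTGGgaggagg
BRCA2 (chr13:32315258-32315507, plus strand): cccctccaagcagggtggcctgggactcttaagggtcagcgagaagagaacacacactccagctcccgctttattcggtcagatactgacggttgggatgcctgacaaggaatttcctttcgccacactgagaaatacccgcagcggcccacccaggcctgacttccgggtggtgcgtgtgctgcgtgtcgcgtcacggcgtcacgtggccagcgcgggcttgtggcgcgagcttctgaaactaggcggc
The box was found 2 times for RAD54L, 1 time for BRCA1, 3 times for CHEK1 and 0 times for BRCA2. Of 30 members with a promoter entry 13 held a box on either strand (43.3%), made up of 9 of 17 that rose, 2 of 6 that fell and 2 of 7 that did not pass, beside 10102 of all 27305 genes with an entry, 13 of 17 G1/S genes and 14 of 16 G2/M genes. A gene was counted where any of its starts held a box. E2F sites, searched on both strands as TTTCCCGC, TTTCGCGC, TTTGCCGC or TTTGGCGC, were found for 2 of 30 members, FANCA and FANCC, beside 3.40% of all genes and 10 of 17 G1/S genes. The cell cycle element TTTGAA was found for 3 of 30 members (ATM, BRIP1 and FANCC) beside 16.1% of all genes and 9 of 16 G2/M genes. A match is a description of the letters in this window and not of binding.

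Genes that recognise and trim the broken end had log2 fold changes near 0. None of RAD50, MRE11 and NBN, the subunits of the MRN nuclease complex, nor RBBP8, its cofactor in trimming, passed the test, with log2 fold changes of 0.08, 0.14, 0.11 and 0.04 and edgeR adjusted p of 0.30, 0.051, 0.0584 and 0.532. NBN, which recruits ATM, had 119.8 and 125 CPM in C4-2 and 117 and 111 CPM in LNCaP. RAD50, the structural subunit, overlapped between the lines, with 76.2 and 83.2 CPM in C4-2 and 80.3 and 70.2 CPM in LNCaP. MRE11, the nuclease, had 55.7 and 56.9 CPM in C4-2 and 53.4 and 49.0 CPM in LNCaP. The calls depend on the setting: without LNCaP replicate 1, RAD50, MRE11 and NBN passed at 0.19, 0.21 and 0.14 (edgeR adjusted p = 0.00165, 0.00255 and 0.00368), and RBBP8 did not (0.097, adjusted p = 0.128). MRE11 and NBN also passed without a filter on low counts (adjusted p = 0.00875 and 0.00868) and with tags of both strands (0.0163 and 0.0238), MRE11 with summed or longest transcripts too (0.0346 and 0.0497), and all 4 genes with library totals. The ratios within a library, which no scaling moves, overlapped for RAD50 to MRE11 (1.07 and 1.15 in C4-2, 1.18 and 1.12 in LNCaP) and for NBN to MRE11 (2.40 and 2.46 in C4-2, 2.44 and 2.54 in LNCaP). That of RBBP8 to MRE11 did not overlap, at 1.98 and 2.00 in C4-2 and 2.12 and 2.15 in LNCaP.

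Among the 4 checkpoint kinases, 2 rose and 2 fell in C4-2, beside 40.2% of all genes tested that rose and 39.7% that fell. With library totals all 4 were higher. ATM answers broken ends and activates CHEK2, while ATR answers exposed single strands and stalled forks and activates CHEK1. CHEK1 had 74.7 and 76.2 CPM in C4-2 and 41.7 and 39.9 CPM in LNCaP, a log2 fold change of 0.89 ± 0.048 (edgeR adjusted p = 8.37e-07), and ATR had 115 and 116 CPM in C4-2 and 102 and 96.4 CPM in LNCaP (0.22 ± 0.043, adjusted p = 0.0014). ATM fell to 94.0 and 98.3 CPM in C4-2, against 132 and 128 CPM in LNCaP (-0.44 ± 0.042, adjusted p = 2.42e-05), though 0.57 with library totals. CHEK2 fell to 41.4 and 42 CPM in C4-2, against 50.7 and 48.5 CPM in LNCaP (-0.25 ± 0.051, adjusted p = 0.00212), though 0.76 with library totals. ATM was 0.511 and 0.530 of ATR per kilobase in C4-2 and 0.813 and 0.836 in LNCaP, a difference that scaling cannot move. Ratios within each branch did not overlap either. CHEK1 was 1.28 and 1.30 times ATR in C4-2 and 0.811 and 0.822 times in LNCaP. CHEK2 was 2.91 and 2.83 times ATM in C4-2 and 2.54 and 2.50 times in LNCaP. CHEK2 has partial pseudogene copies in the genome, as has FANCD2, and how tags matching several places were counted is not given in the sources used here, so the levels of both are uncertain.

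**Figure D3:**
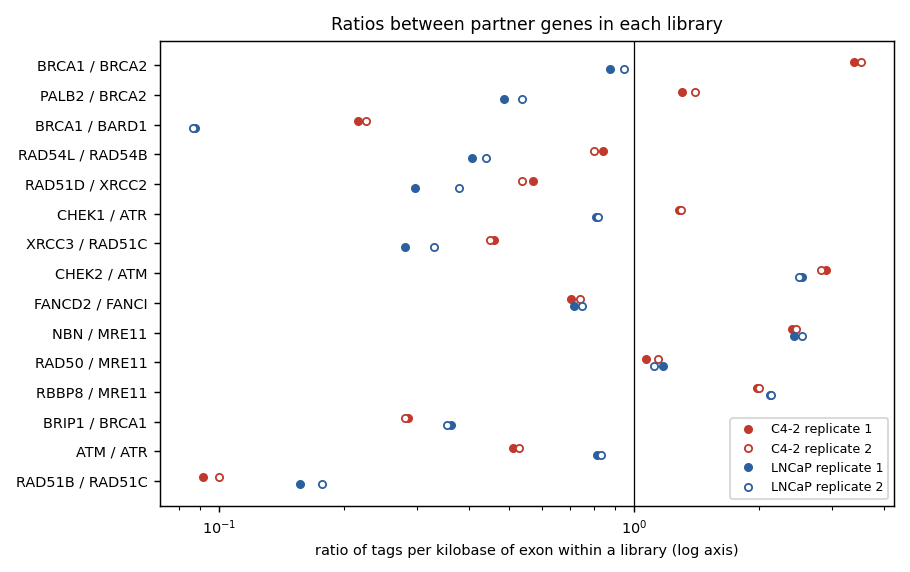
Ratio of tags per kilobase of exon between 15 pairs of partner genes within each library, on a log axis, with C4-2 drawn above LNCaP in each row. The lines do not overlap in 12 pairs, with BRCA1 to BRCA2 moving most (3.40 and 3.53 in C4-2, 0.88 and 0.95 in LNCaP), and overlap for FANCD2 to FANCI, NBN to MRE11 and RAD50 to MRE11.

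For such pairs an exact two-sided permutation test of 2 libraries against 2 cannot go below p = 0.333, so the ratios are given without a test. The 12 pairs that did not overlap, of 15, stand beside 89.9% of single genes that did not overlap.

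Of the helicases, BLM, which dissolves joined DNA molecules with its partners, rose to 20.1 and 20.7 CPM in C4-2, against 14.6 and 12.4 CPM in LNCaP (0.60 ± 0.084, edgeR adjusted p = 0.00025). WRN, a relative of BLM, overlapped between the lines at 30.6 and 31.5 CPM in C4-2 and 33.6 and 31.1 CPM in LNCaP (-0.06 ± 0.059, adjusted p = 0.385). SLX4, the scaffold for nucleases that cut crosslinks and joined molecules, was the least abundant of the 34 genes per kilobase in both lines, at 1.97 ± 0.026 CPM per kilobase in C4-2 and 1.62 ± 0.027 in LNCaP (SD, n = 2), and rose (0.29 ± 0.066, adjusted p = 0.00398).

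In the Fanconi core complex, which attaches ubiquitin to FANCD2 and FANCI, 6 of 8 genes rose in C4-2 and none fell, at a median log2 fold change of 0.36, beside 40.2% of all genes tested that rose. With the stricter filter 4 rose and FANCM fell (-0.18, edgeR adjusted p = 0.015). FANCC, a structural subunit (chromosome 9, 97861336 to 98079991, minus strand), had 41.5 and 41.8 CPM in C4-2 and 26.4 and 21.9 CPM in LNCaP (0.79 ± 0.084, edgeR adjusted p = 4.34e-05). FANCL, the ubiquitin ligase subunit, had 21.3 and 22.7 CPM in C4-2 and 13.8 and 13.4 CPM in LNCaP (0.69 ± 0.064, adjusted p = 1.85e-05). FANCF, an adaptor encoded by a single exon, had 56.9 and 56.3 CPM in C4-2 and 40.5 and 38.9 CPM in LNCaP (0.51 ± 0.050, adjusted p = 2.73e-05). The lines did not overlap for any of these 3 genes.

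The subunits FANCG and FANCA, which bind each other, rose by 0.40 ± 0.053 and 0.26 ± 0.071 (edgeR adjusted p = 0.000186 and 0.00913). FANCA had 33.3 and 30.8 CPM in C4-2 and 25.3 and 28.2 CPM in LNCaP, close but without overlap, and its call ended with a stricter filter (0.17, adjusted p = 0.0619). FANCE, the subunit that contacts FANCD2, had 13.0 and 12.2 CPM in C4-2 and 8.49 and 11.5 CPM in LNCaP, and its call (0.33 ± 0.13, adjusted p = 0.043) ended without LNCaP replicate 1 (0.14, adjusted p = 0.114) and without C4-2 replicate 1 (0.29, adjusted p = 0.0722), while without LNCaP replicate 2 it was 0.57 (adjusted p = 4.66e-10). FANCB, whose gene lies on the X chromosome, and FANCM, the motor protein that anchors the complex to DNA, did not pass (0.04 ± 0.082 and -0.09 ± 0.051, adjusted p = 0.678 and 0.139).

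The substrates of the core complex hardly differed. FANCI had 126 and 126 CPM in C4-2 and 127 and 124 CPM in LNCaP, and FANCD2 had 95.1 and 101 CPM in C4-2 and 98.1 and 99.3 CPM in LNCaP. Their values overlapped between the lines, with log2 fold changes of 0.01 ± 0.041 and -0.01 ± 0.043 (edgeR adjusted p = 0.893 and 0.784), and 1.013 and 0.99 with library totals. FANCD2 was 0.704 and 0.741 of FANCI per kilobase in C4-2 and 0.717 and 0.748 in LNCaP.

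Levels within the list covered a wide range. After BARD1, RAD51C was the most abundant per kilobase in both lines, at 49.2 ± 0.51 CPM per kilobase in C4-2 and 42.7 ± 1.87 in LNCaP (SD, n = 2). NBN and FANCI followed in C4-2, at 26.5 ± 0.87 and 26.5 ± 0.069 CPM per kilobase, and FANCI, CHEK2 and NBN in LNCaP, at 26.4 ± 0.57, 24.98 ± 0.78 and 24.7 ± 0.78. NBN and FANCI lay within their spread of each other in C4-2, and so did CHEK2 and NBN in LNCaP. At the low end, beside SLX4, stood FANCB and BLM in C4-2, at 4.04 ± 0.21 and 4.503 ± 0.099, and BLM, BRIP1, RAD51D and RAD54L in LNCaP, at 2.98 ± 0.35, 3.48 ± 0.097, 3.63 ± 0.52 and 3.81 ± 0.16. The 34 genes had between 1078 and 36202 sense tags in a C4-2 library and between 472 and 20362 in an LNCaP library, so none was near the detection limit. In the GENCODE annotation 10 members share exon bases with another gene on the same strand, RAD50 and RAD51D with readthrough genes among them, and 23 on the opposite strand, so part of their tags may belong to those neighbours.

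**Figure D4:**
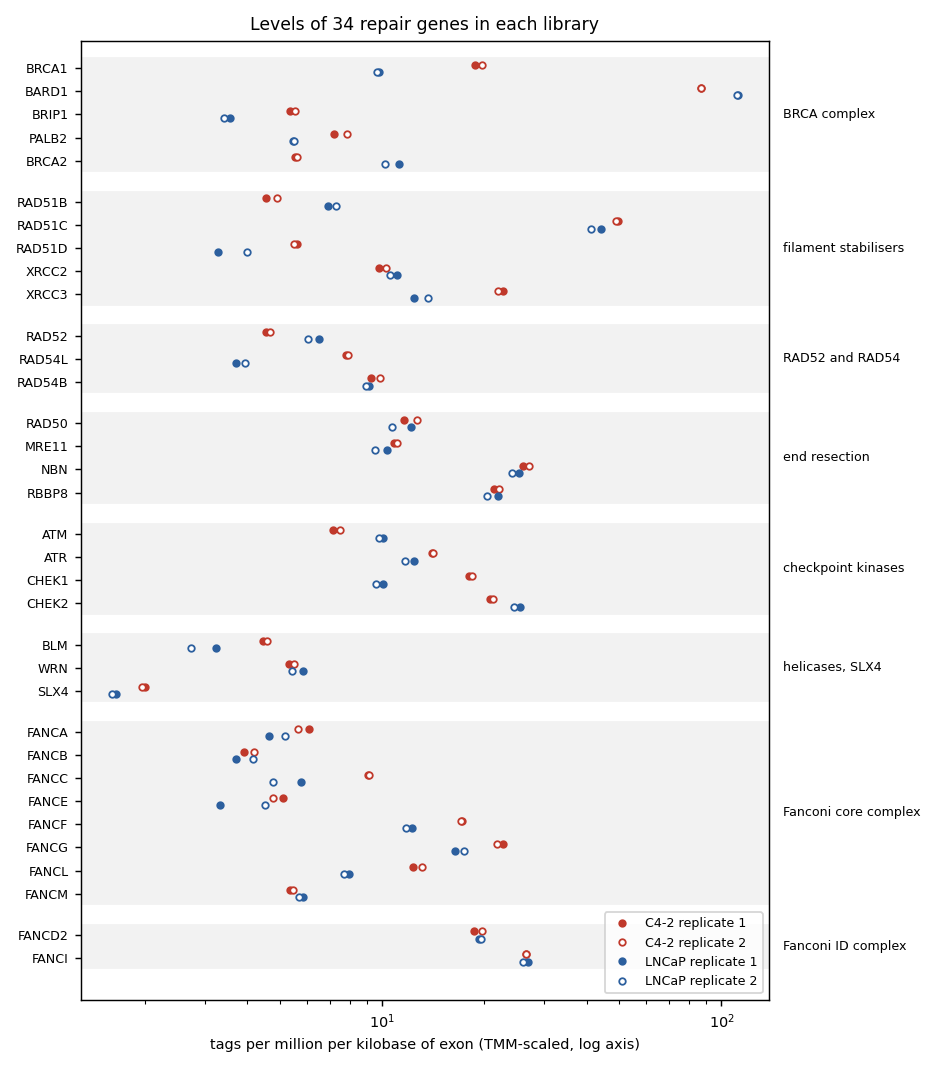
Level of each of the 34 genes in each of the 4 libraries, as TMM-scaled tags per 1e6 tags and per kilobase of exon on a log axis, with C4-2 above LNCaP in each row and genes grouped by role. BARD1 lies highest, at 87.1 in C4-2 and 111 in LNCaP on average, and SLX4 lowest, at 1.97 in C4-2 and 1.62 in LNCaP.

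Other genes of these pathways, outside the list of 34, moved in both directions. Of 37 other recombination genes, 16 rose, 17 fell and 4 missed the threshold (median -0.09), against 32 higher and 2 lower with library totals. The exonuclease gene EXO1 and RMI2, a partner of BLM, rose, at log2 fold changes of 1.35 and 1.83. RPA3, the small subunit of the single-strand binding protein RPA, fell to 48.5 and 52.4 CPM in C4-2, against 205 and 207 CPM in LNCaP (-2.03). The other subunits of RPA, RPA1 and RPA2, rose instead (0.70 and 0.82, edgeR adjusted p = 1.38e-06 and 4.53e-07). Of 15 other Fanconi genes, 9 were higher, 4 lower and 2 did not pass (median 0.26; all 15 higher with library totals). The 2 that did not pass were the core complex genes FAAP20 and FAAP24 (0.16 and -0.26, edgeR adjusted p = 0.181 and 0.0542). In the same list the ubiquitin ligase gene RFWD3, the core complex gene FAAP100 and the deubiquitinase gene USP1 rose (1.11, 1.15 and 0.40). UBE2T, the ubiquitin-conjugating partner of FANCL, fell (-0.68). End joining, the other route of break repair, had 9 of 18 tested genes higher, 6 lower and 3 that did not pass (median 0.10; 15 higher and none lower with library totals). Its changes with the smallest adjusted p were rises of PARP1, a sensor of DNA breaks (1.40), XRCC5 and XRCC6, the Ku proteins (0.89 and 0.57), and PRKDC, their kinase (0.63). Among the 6 lower genes, LIG4 and DCLRE1C fell most (-1.06 and -1.08, edgeR adjusted p = 2.79e-06 and 6.44e-06). Genes called made up 89.19% of the other recombination genes tested, 86.67% of the other Fanconi genes and 83.33% of the end joining genes, beside 80.0% of all genes tested.

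Many recombination genes are transcribed in S phase, and the cell cycle markers of these libraries moved as well. All 20 G1/S genes, among them the licensing genes MCM6, MCM4 and CDC6 and the chromatin gene UHRF1, were higher in C4-2 (2.10, 1.90, 1.35 and 2.20, list median 1.06). The cyclin gene CCNE2 passed narrowly (0.12, edgeR adjusted p = 0.049), and 19 of 20 genes were higher and none lower with RLE size factors, DESeq2, the stricter filter, summed transcripts or the replicate block, and without LNCaP replicate 2 or either C4-2 library, against all 20 with library totals. The summed level of the list was 3611 and 3597 CPM in C4-2 and 1732 and 1791 CPM in LNCaP. Of 20 G2/M genes 19 were lower in C4-2 and none higher (median -1.04), with the cyclins CCNB2 and CCNB1, HMMR and NUSAP1 at -2.35, -1.82, -1.89 and -1.36. Their summed level was 1618 and 1647 CPM in C4-2 and 3206 and 3143 CPM in LNCaP, and with library totals 6 were higher and 7 lower. The median of the 34 repair genes, 0.17, lay between the medians of these lists, as did that of all genes tested, -0.01. The part of the cell cycle, or of the share of exonic tags, in the changes of the repair genes was not tested.

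**Figure D5:**
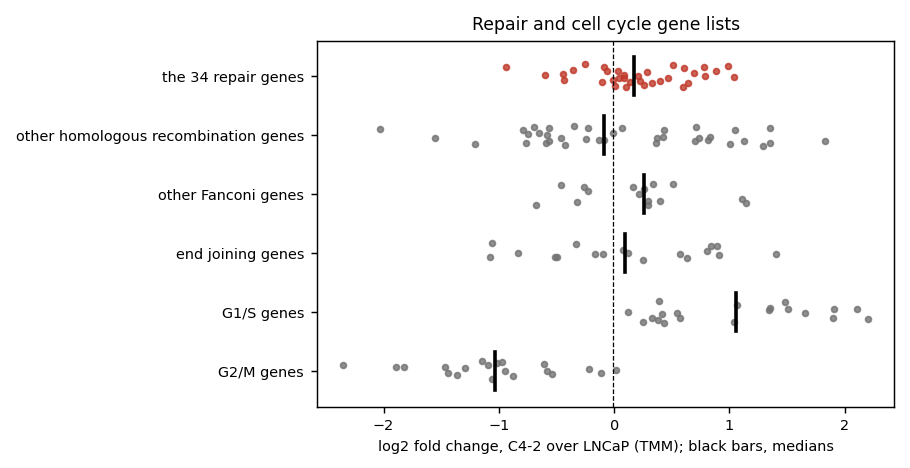
Log2 fold changes (TMM), C4-2 over LNCaP, of the tested genes of 6 lists, with black bars at the list medians and a dashed line at the median of all genes tested (-0.01). The G1/S genes lie above 0 and all but 1 of the G2/M genes below it, with the 34 repair genes spread between -0.94 and 1.04, and scaling to library totals shifts the median of all genes upward by 1.004.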

How the data were processed

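The submitters' processing notes name TopHat2 2.0.6, Bowtie and the build hg19 (GRCh37). For 41351 entries of RefSeq transcripts, the authors deposited a count of tags per strand and the RPKM made from it. The counting tool is not given in the sources used here. The deposited RPKM values divide by exon length and by a total per library, which was recovered from entries of a single exon and gave the exon lengths. No label says that the kit keeps strand, yet 1.29% to 1.99% of tags lay opposite to the gene, and the sense column was used. Accessions were named through RefSeq (GRCh38.p14), used for names alone, with 38974 of 40304 matched. Tags without a symbol (2.06% to 2.15%) were left out. For each of 22985 genes 1 transcript was kept, that with the largest share of tags on average. Counts were tested with edgeR 4.0.16 in R 4.3.3 (filter on low counts, TMM, quasi-likelihood test, Benjamini-Hochberg over 15975 genes), with DESeq2 1.42.0 as an alternative. The test was tried on simulated counts. The SE of a fold change was derived from its F statistic. Replicates differed by more than sampling noise (chi-square per degree of freedom 12.6 for C4-2 and 24.6 for LNCaP), with a biological coefficient of variation of 6.43%. All 34 members were described, and up to 4 genes of each other list by smallest adjusted p. CD3E, COL1A2, CCNE2, RPA1, RPA2, FAAP20, FAAP24, LIG4 and DCLRE1C were added, picked after their values were seen. Some genes of these lists are counted but not reported here by name. Members and lists were chosen with earlier results of these data known, the partner pairs and promoter motifs after the values were seen.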

Additional observations from a re-analysis of the deposited data

Results flagged for a closer look

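For 9 members, tags on the strand opposite to the gene, which the comparisons do not use, exceeded both 3 counts and the library-wide opposite share in every library, which was 1.31% and 1.29% in C4-2 and 1.99% and 1.83% in LNCaP. As a percentage of all tags of the gene, FANCL had 27.5% and 23.9% in C4-2 and 32.4% and 27.5% in LNCaP, and FANCA had 14.4% and 15.9% in C4-2 and 23.6% and 21.7% in LNCaP. In the GENCODE annotation FANCL shares 572 exon bases with VRK2, and FANCA 2409 with ZNF276, each on the opposite strand.

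The share was 4.56% and 4.63% in C4-2 and 6.91% and 7.68% in LNCaP for CHEK1, and 5.01% and 4.28% in C4-2 and 8.50% and 6.52% in LNCaP for RAD54L. It was 3.55% and 3.40% in C4-2 and 8.46% and 9.75% in LNCaP for BRIP1, and 2.30% and 2.15% in C4-2 and 6.40% and 6.04% in LNCaP for SLX4. BARD1 had 1.41% and 1.40% in C4-2 and 3.26% and 3.08% in LNCaP, and FANCF had 2.05% and 1.45% in C4-2 and 2.33% and 2.55% in LNCaP. In these 8 genes the share was lower in C4-2 on average, as was the library-wide share. FANCI, which shares 458 exon bases with POLG, went the other way, with 5.33% and 5.73% in C4-2 and 4.18% and 4.28% in LNCaP. These differences were not tested.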

How the results depend on the processing

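Of 34 members, 14 kept direction and side of the threshold in all 14 other settings, and 20 in all but library totals. With library totals, 11572 genes were higher and 1757 lower, 33 members higher and 0 lower, at a member median of 1.18. BARD1 (0.65), BRCA2 (0.067), RAD51B (0.41), XRCC2 (0.90), RAD52 (0.57), ATM (0.57), CHEK2 (0.76), WRN (0.95), FANCM (0.92) and FANCD2 (0.99) turned positive there, by construction of the scaling. The member median was 0.21 without a filter, 0.22 with the longest transcript, 0.079 with a mean of at least 1 CPM and 0.14 with summed transcripts. That stricter filter ended the calls of RAD51C, FANCA and FANCE, called XRCC2, FANCM and FANCD2 lower, and turned RAD54B (-0.0078), RAD50 (-0.0072), RBBP8 (-0.056), FANCB (-0.053) and FANCI (-0.085), none of them called. RAD51C turned with summed transcripts (-0.047), and FANCD2 without a filter (0.028) and with both strands (0.026). The causes of these changes were not tested. Leaving out each library in turn gave 16 to 19 members higher, 6 lower, 5962 to 6574 genes higher, 5683 to 6196 lower and a median of 0.14 to 0.19. Across those settings RAD50 ranged from -0.0082 to 0.19, RBBP8 from -0.016 to 0.097, WRN from -0.11 to 0.0032, FANCB from -0.033 to 0.13, FANCD2 from -0.046 to 0.036 and FANCI from -0.014 to 0.034. The labels name no batch that ties same-numbered libraries together. Deviations of same-numbered libraries correlated at -0.129, a single value that cannot exclude a shared preparation. The replicate block gave 17 members higher and 6 lower, and crossed pairing, added after seeing the data, gave 19 and 6. RLE size factors and DESeq2 changed no member's call. Low depth limits no member here, the lowest count being 472 tags.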
